A study of Homo sapiens with 48 samples.

Results

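Transcripts of 8 cytosolic DNAJ co-chaperones of HSP70, the genes DNAJB1, DNAJB2, DNAJB4, DNAJB5, DNAJB6, DNAJA1, DNAJA2 and DNAJA4, were followed in 8 human cancer cell lines treated with the proteasome inhibitor carfilzomib or with its solvent DMSO. The genes were chosen by symbol, all 8 were found, and they are 8 of the 33892 rows of the deposited matrix of gene counts. RKO and DLD-1 are labelled as colon cancer, H-23 and H-1299 as lung cancer, PANC-1 and CAPAN-2 as pancreatic cancer, and H-929 and RPMI as multiple myeloma. Each line was exposed for 24 h to carfilzomib, at the IC50 of proteasome activity, or to DMSO, with 3 biological replicates per group, 16 groups and 48 libraries. The study's title names an HSP70-driven response to proteasome inhibition, and the DNAJ genes encode the partners of that chaperone. All lines grew as flat cultures, and each cancer type is represented by 2 lines. The concentrations behind the IC50 were not used here, so the line and the dose it received cannot be told apart in any comparison between lines.

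DNAJ proteins, also called HSP40 proteins, share a J domain that stimulates the ATPase of HSP70 and so lets the chaperone close on an unfolded client. Members of class A and class B carry a glycine and phenylalanine rich region after the J domain, and class A members also carry a zinc-binding region. Both classes bring clients to HSP70 for refolding, for release from aggregates or for transfer to degradation. Several of these genes are classical targets of heat shock factor HSF1, which binds inverted repeats called heat shock elements, and the loss of proteasome activity is a known trigger of that factor.

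Libraries held between 9.12 and 64.4 M counts (M, mega). Levels are given as CPM, a gene's counts relative to the size of its library, scaled within a line for treatment comparisons. For comparisons between genes or lines they are CPM per kb of exon, scaled over all 48 libraries. Markers matched the labels only in part, and the colon, lung and pancreatic duct lists did not single out the lines of their label. All 7 plasma cell markers reached a mean of 1 CPM in H-929 and RPMI, where 3 or 4 did in the carcinoma lines, and all 5 epithelial markers did so in DLD-1, H-23, PANC-1 and CAPAN-2, where 2 did in H-929 and 4 in RPMI. In RKO 3 of the 5 epithelial and 1 of the 4 colon markers reached it, and in H-1299 2 of the 5 epithelial and 0 of 3 lung markers did. Of the 4 colon markers 3 did in DLD-1 and also in CAPAN-2. Of the 4 pancreatic duct markers 3 did in PANC-1 and CAPAN-2, and also in H-23, H-929 and RPMI. The summed lung markers in DMSO were highest in H-929, between 40.4 and 44.01 CPM, against 3.44 to 4.30 CPM in H-23. Between replicates, differences exceeded counting noise in every group.

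The 8 genes lie on 7 chromosomes in GRCh38, the build the submitters' processing notes name as hg38. DNAJB1 lies at chr19:14514770-14529770, minus strand, DNAJB2 at chr2:219279267-219286900, plus strand, DNAJB4 at chr1:77979175-78017964, plus strand and DNAJB5 at chr9:34989641-34998900, plus strand. DNAJB6 lies at chr7:157335381-157417439, plus strand, DNAJA1 at chr9:33025211-33039907, plus strand, DNAJA2 at chr16:46955362-46973788, minus strand and DNAJA4 at chr15:78264086-78282196, plus strand. Exons of DNAJB1 overlap those of TECR on the other strand over 211 bases (5.75% of its exon length), and exons of DNAJB4 overlap GIPC2 on the same strand over 78 bases. Exons of DNAJA4 overlap the annotated transcript AC090607.4 on the other strand over 369 bases. Whether counting used strand is not given in the sources used here, so reads in such stretches are uncertain. The 6 rows of DNAJA1 and DNAJB1 pseudogenes held at most 0.678% of the parent gene's count in any library.

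Promoter windows of the 8 genes are shown because most of the genes were higher together in the same lines, as described further on. RefSeq windows of build GRCh38.p14, from 250 bases before a start site to 50 after it, matched all 8 symbols and gave 13 windows of 35116 for all genes. A 2-unit heat shock element was searched as GAANNTTC or TTCNNGAA, where N is any base, and a 3-unit element as GAANNTTCNNGAA or TTCNNGAANNTTC. Both strands were read, and a 3-unit match contains 2 overlapping 2-unit matches. The 2-unit element occurred in 13.5% of all windows and the 3-unit element in 0.490%. Of the 13 windows of the 8 genes, 6 held a 2-unit match, in 5 genes, and 2 held a 3-unit match, in 2 genes. The windows below carry those matches in capitals.
DNAJB1 (chr19:14518348-14518647, minus strand): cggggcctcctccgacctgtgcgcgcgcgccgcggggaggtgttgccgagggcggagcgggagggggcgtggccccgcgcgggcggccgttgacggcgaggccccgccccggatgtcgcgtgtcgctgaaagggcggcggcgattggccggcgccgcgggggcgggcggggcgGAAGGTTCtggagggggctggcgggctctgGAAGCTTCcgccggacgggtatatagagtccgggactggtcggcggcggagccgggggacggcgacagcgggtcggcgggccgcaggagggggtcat
DNAJB4 (chr1:78004689-78004988, plus strand): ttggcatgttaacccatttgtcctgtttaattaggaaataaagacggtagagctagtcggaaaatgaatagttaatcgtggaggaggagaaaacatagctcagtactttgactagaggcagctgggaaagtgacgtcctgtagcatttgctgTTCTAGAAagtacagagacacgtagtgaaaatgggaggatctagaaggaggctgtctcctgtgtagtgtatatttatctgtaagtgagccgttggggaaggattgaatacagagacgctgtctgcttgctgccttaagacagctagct
DNAJB6 (chr7:157336754-157337053, plus strand): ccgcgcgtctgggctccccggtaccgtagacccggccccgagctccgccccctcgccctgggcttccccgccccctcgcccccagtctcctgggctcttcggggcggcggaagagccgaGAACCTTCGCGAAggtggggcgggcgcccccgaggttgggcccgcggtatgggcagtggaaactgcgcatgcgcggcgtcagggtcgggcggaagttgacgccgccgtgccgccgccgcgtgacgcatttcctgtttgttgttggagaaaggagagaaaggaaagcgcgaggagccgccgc
DNAJA1 (chr9:33025023-33025322, plus strand): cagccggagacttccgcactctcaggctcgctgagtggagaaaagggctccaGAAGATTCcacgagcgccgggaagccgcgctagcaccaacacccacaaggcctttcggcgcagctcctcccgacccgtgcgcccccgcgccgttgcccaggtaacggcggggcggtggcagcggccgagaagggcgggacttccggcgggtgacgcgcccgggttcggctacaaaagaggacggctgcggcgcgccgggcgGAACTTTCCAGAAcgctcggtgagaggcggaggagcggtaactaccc
DNAJA4 (chr15:78264312-78264611, plus strand): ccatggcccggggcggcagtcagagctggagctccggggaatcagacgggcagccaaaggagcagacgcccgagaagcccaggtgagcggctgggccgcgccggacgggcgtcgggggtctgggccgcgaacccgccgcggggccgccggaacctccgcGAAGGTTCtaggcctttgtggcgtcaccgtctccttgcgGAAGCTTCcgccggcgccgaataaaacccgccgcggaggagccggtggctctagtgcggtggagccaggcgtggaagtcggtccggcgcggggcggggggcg
In the DNAJB1 window the 2-unit matches began 77 and 47 bases before the start site, as GAAGGTTC and GAAGCTTC, and a further window of the gene held GAAGCTTC just after its start. The DNAJA4 window held the same pair of 8-base matches, 91 and 52 bases before the start. The second match of the pair lies in a run of 15 bases, GGAAGCTTCCGCCGG, that both windows share and that occurs in 2 of the 35116 windows on either strand. The 3-unit matches were GAACCTTCGCGAA in DNAJB6, 131 bases before the start, and GAACTTTCCAGAA in DNAJA1, which begins at the base numbered 4 after the start. DNAJB4 held TTCTAGAA 98 bases before the start of its second window. The windows of DNAJB2, DNAJB5 and DNAJA2 held none of these letters. A match is a description of the sequence, not a measured binding site.

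Without drug, DNAJA1, a farnesylated class A protein that works with the constitutive HSP70, had the highest level of the 8 genes per kb of its exon union in every line. With the longest transcript as the length this did not hold in CAPAN-2 and DLD-1, as given with the shares further on. Its level was 127 in H-23, 122 in PANC-1, 120.2 in H-1299, 97.3 in RKO, 93.4 in RPMI, 62.9 in H-929, 48.6 in CAPAN-2 and 46.3 in DLD-1 CPM per kb. DNAJA2, the other abundant class A member and an efficient refolding partner of HSP70, measured 40.02 in RPMI, 34.4 in DLD-1, 34.2 in H-1299, 31.9 in RKO, 25.02 in H-23, 22.4 in CAPAN-2, 20.4 in H-929 and 19.9 in PANC-1 CPM per kb. DNAJB1, the main heat-inducible class B member and a partner in dissolving aggregates, measured 61.5 in H-1299, 45.1 in RPMI, 37.03 in DLD-1, 36.2 in CAPAN-2, 30.04 in PANC-1, 29.3 in H-23, 26.5 in RKO and 13.8 in H-929 CPM per kb. H-929 therefore had the lowest DMSO level of DNAJB1 and H-1299 the highest, and their 3 libraries did not overlap (13.8 ± 0.524 and 61.5 ± 1.85, SD, n = 3).

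The other 5 genes were lower per length. DNAJB6, which holds back aggregation of polyglutamine proteins, measured 17.9 in H-1299, 11.9 in PANC-1, 9.06 in RKO, 8.51 in H-23, 8.29 in CAPAN-2, 7.20 in RPMI, 5.53 in H-929 and 4.71 in DLD-1 CPM per kb. DNAJB2, whose ubiquitin-binding motifs link clients to the proteasome, measured 7.71 in PANC-1, 7.69 in H-23, 6.70 in CAPAN-2, 4.81 in H-1299, 3.65 in RKO, 3.44 in DLD-1, 3.40 in H-929 and 2.201 in RPMI CPM per kb, and DNAJB4, a heat-inducible relative of DNAJB1, 8.38 in H-1299, 6.51 in H-23, 5.72 in DLD-1, 5.66 in RPMI, 5.31 in PANC-1, 3.77 in RKO, 2.95 in CAPAN-2 and 2.24 in H-929 CPM per kb. These 3 genes varied less between lines than DNAJB5 and DNAJA4 did. DNAJB5, a further relative of DNAJB1, measured 2.65 in H-1299, 2.48 in H-23, 1.77 in PANC-1, 1.75 in RKO, 1.42 in H-929, 0.383 in RPMI, 0.372 in DLD-1 and 0.169 in CAPAN-2 CPM per kb. DNAJA4, a heat- and sterol-responsive class A member, measured 8.05 in CAPAN-2, 3.54 in RKO, 1.59 in PANC-1, 0.196 in H-23, 0.187 in RPMI, 0.149 in DLD-1, 0.0820 in H-929 and 0.0664 in H-1299 CPM per kb, so its level was clear in CAPAN-2, RKO and PANC-1 and near the floor in the other 5 lines.

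The DMSO level differed between lines for 8 of the 8 genes in edgeR's quasi-likelihood test over all 48 libraries, where 97.6% of all genes tested did so. Of the 28 pairs of lines, between 23 and 25 differed for each gene, against 69.8% of pairs over all genes. Neighbours in the order that did not pass the test were DLD-1 with CAPAN-2, PANC-1 with H-23 and H-23 with RKO for DNAJB1 and H-23 with PANC-1, PANC-1 with H-1299, RKO with RPMI and CAPAN-2 with DLD-1 for DNAJA1. For DNAJA2 they were DLD-1 with H-1299, H-1299 with RKO, CAPAN-2 with H-929 and H-929 with PANC-1, and for DNAJB6 RKO with H-23 and H-23 with CAPAN-2. For DNAJB2 they were PANC-1 with H-23, RKO with DLD-1 and DLD-1 with H-929, for DNAJB4 H-23 with DLD-1, DLD-1 with RPMI and RPMI with PANC-1, for DNAJB5 H-1299 with H-23, PANC-1 with RKO, RKO with H-929 and RPMI with DLD-1 and for DNAJA4 H-23 with RPMI, RPMI with DLD-1 and H-929 with H-1299.

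**Figure D1:**
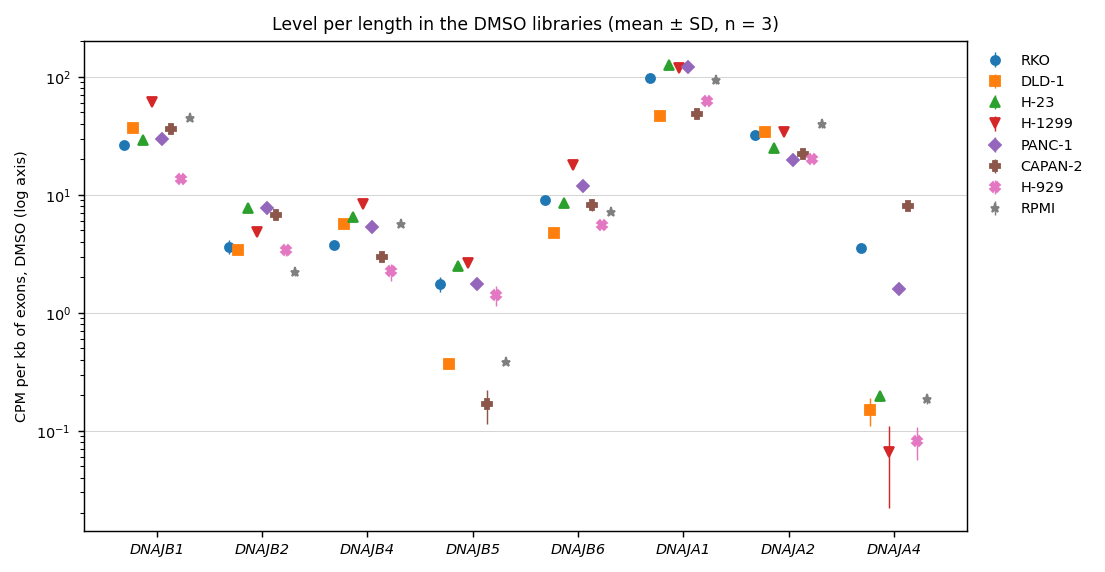
Level of each of the 8 genes in the DMSO libraries, in CPM per kb of exon on a log axis, as mean ± SD of 3 libraries, with a symbol for each line. With exon-union lengths DNAJA1 is the highest gene in every line (not in CAPAN-2 and DLD-1 with the longest transcript), and DNAJA4 spans the widest range, from 0.0664 in H-1299 to 8.05 in CAPAN-2.

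After carfilzomib, at least 3 of the DNAJ genes were called higher in each of 6 lines. None was in the colon cancer lines RKO and DLD-1, where only 3.61% and 10.9% of all genes were. In every line its 6 libraries were fitted alone with edgeR's quasi-likelihood test, and a gene was called at a Benjamini-Hochberg adjusted p under 0.05 over all genes. Of the 64 combinations of gene and line, 30 were called higher, where 20.8% of combinations over all genes were. Another 7 were called lower (21.1% over all genes), 26 were not called, and DNAJA4 in H-929 had too few counts to be tested. A rise of at least 2-fold was called in 10 combinations (4.91% over all genes) and a fall of that size in 0 (3.66%). In bulk RNA, a change in every cell and a change in the number of surviving cells of a kind cannot be told apart.

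CAPAN-2 had 7 of the 8 genes called higher (25.7% of all genes), H-1299 had 6 (29.9%), and RPMI had 5 (31.3%). In H-929, 5 of 7 tested genes were higher (26.1%) and 1 was lower (26.6%). H-23 had 4 genes higher (17.7%) and PANC-1 had 3 (20.5%). None was called lower in CAPAN-2, H-1299, RPMI, H-23 or PANC-1, where 26.8%, 31.3%, 32.2%, 16.2% and 18.2% of all genes were. The colon cancer lines went the other way, with 0 genes higher (3.61% in RKO and 10.9% in DLD-1) and 3 lower in each (5.28% in RKO and 12.1% in DLD-1). The median log2 fold change of the 8 genes was 0.98 in H-1299, 0.81 in H-929, 0.52 in RPMI, 0.49 in CAPAN-2, 0.21 in H-23 and 0.11 in PANC-1. It was -0.14 in DLD-1 and -0.19 in RKO, while the median of all genes stayed between -0.021 and 0.021 in every line.

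**Figure D2:**
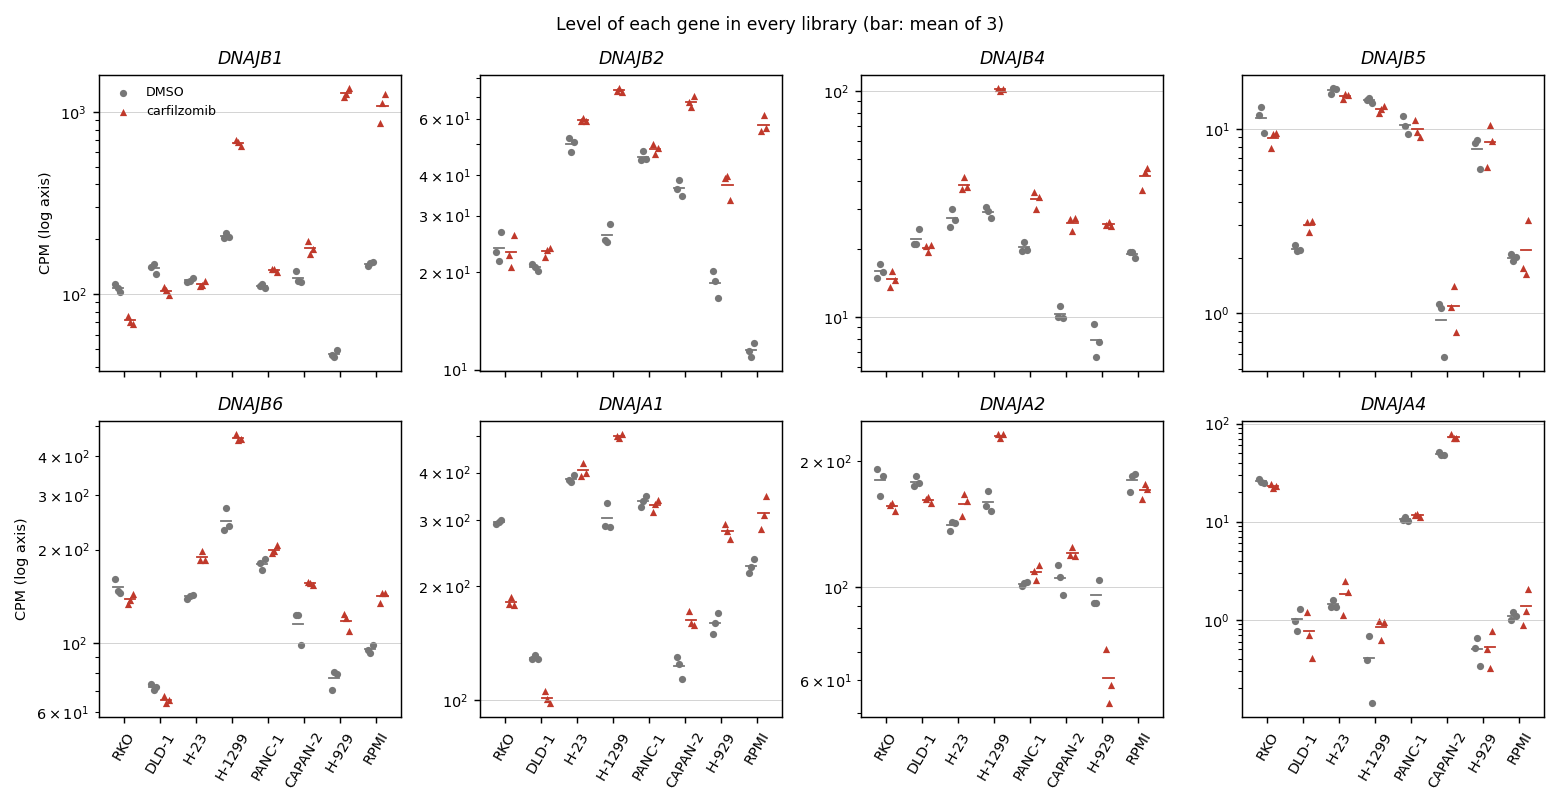
Level of each gene in every library, in CPM on a log axis, with DMSO as grey circles and carfilzomib as red triangles and a bar at the mean of 3. The DNAJB1 triangles of H-929 lie between 1209.9 and 1353 CPM, far above its circles at 45.1 to 49.6 CPM, and the symbols of DNAJB5 overlap in most lines.

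DNAJB1 had the largest rise of the 8 genes and the widest range over lines. In H-929 its levels were 46.3, 45.1 and 49.6 CPM in the DMSO libraries and 1209.9, 1254 and 1353 CPM after carfilzomib. In RPMI they were 143, 148 and 149 CPM and then 874, 1121 and 1254 CPM, and in H-1299 202, 216 and 205 CPM and then 704, 686 and 648 CPM. The treated libraries were all far above the DMSO libraries in these 3 lines, although DNAJB1 started lowest in H-929 and highest in H-1299. The log2 fold changes were 4.76 ± 0.085 (SE, edgeR adjusted p = 8.11e-14) in H-929, 2.88 ± 0.10 (adjusted p = 5.73e-11) in RPMI and 1.71 ± 0.045 (adjusted p = 2.66e-11) in H-1299. On the linear scale these are folds of 27.1, 7.38 and 3.27.

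The pancreatic cancer lines showed smaller rises of DNAJB1. CAPAN-2 had 134, 118 and 117 CPM in DMSO and 196, 167 and 176 CPM after carfilzomib, and PANC-1 had 111, 114 and 109 CPM and 137, 138 and 133 CPM. The groups did not overlap in either line, and the log2 fold changes were 0.55 ± 0.071 (edgeR adjusted p = 1.29e-05) and 0.29 ± 0.035 (adjusted p = 2.65e-05). In RKO the gene went from 114, 108 and 103 CPM to 76.03, 70.8 and 68.3 CPM, and in DLD-1 from 141, 147 and 129 CPM to 109, 105 and 99.4 CPM. Every treated library of the colon cancer lines was below every DMSO library, and DNAJB1 fell by 0.59 (adjusted p = 4.58e-05) and by 0.41 (adjusted p = 6.32e-04) on the log2 scale. H-23 was between the groups, with 117, 118 and 123 CPM and 111, 112 and 118 CPM, overlapping ranges and a log2 fold change of -0.065 ± 0.04 that did not pass the test (adjusted p = 0.243).

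**Figure D3:**
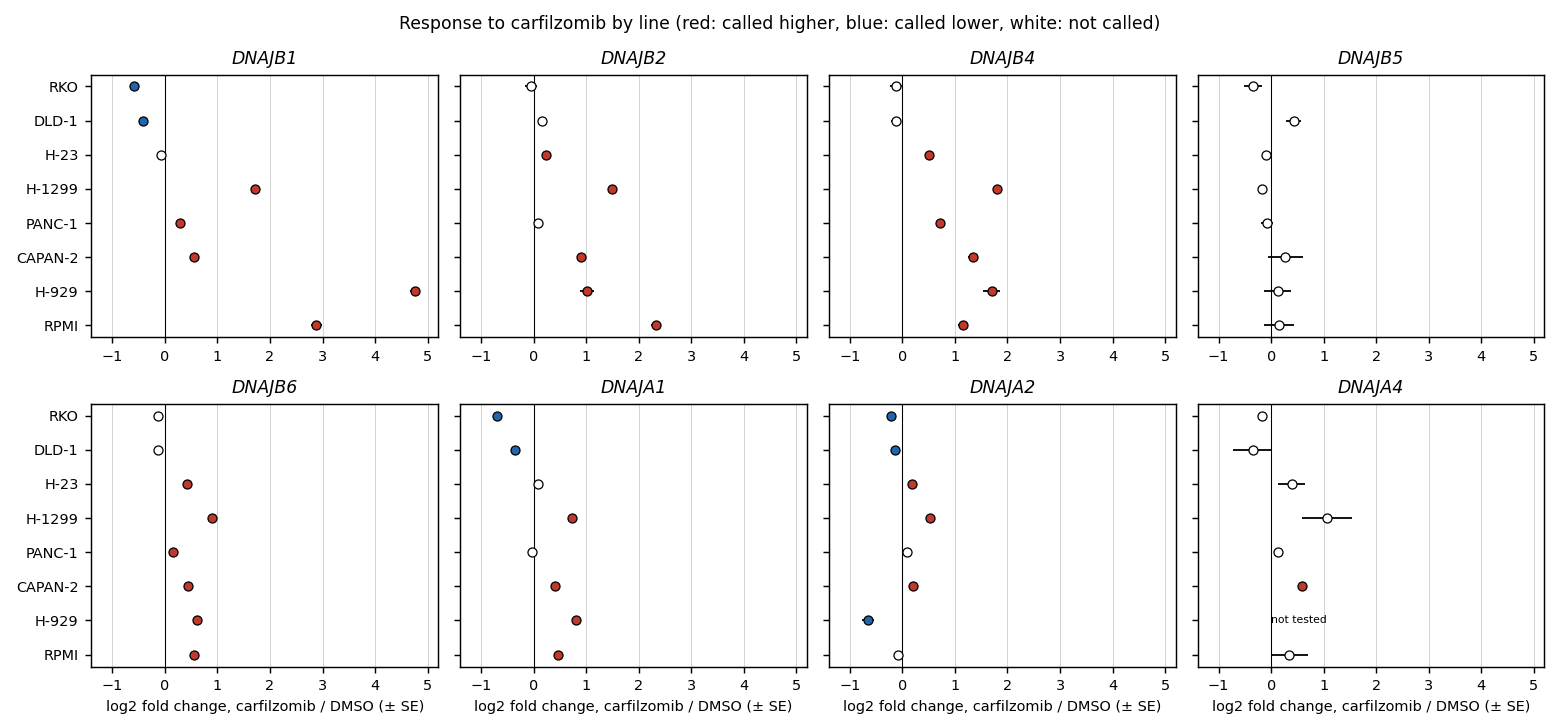
Log2 fold change (carfilzomib over DMSO, with its SE) of each gene in each line, with red points called higher, blue points called lower and white points not called at an adjusted p of 0.05. DNAJB1 reaches 4.76 in H-929, and red points are absent from the RKO and DLD-1 rows in all 8 panels.

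DNAJB4 and DNAJB6 were higher in the same 6 lines, all but RKO and DLD-1. DNAJB4 in H-1299 was 30.7, 29.5 and 27.4 CPM in DMSO and 103, 99.5 and 102 CPM after carfilzomib, a log2 fold change of 1.79 ± 0.053 (edgeR adjusted p = 6.74e-11). In H-929 it was 9.32, 6.63 and 7.72 CPM and then 25.4, 26.2 and 25.3 CPM, and in CAPAN-2 9.96, 11.2 and 9.85 CPM and then 26.9, 23.9 and 27.2 CPM. The treated libraries lay above all DMSO libraries in these lines, with log2 fold changes of 1.70 ± 0.16 in H-929 (adjusted p = 1.10e-06) and 1.33 ± 0.086 in CAPAN-2 (adjusted p = 9.70e-09). The rises were 1.14 ± 0.09 in RPMI, 0.71 ± 0.067 in PANC-1 and 0.50 ± 0.07 in H-23. In PANC-1 DNAJB4 had the largest log2 fold change of the 8 genes, from 19.6, 21.3 and 19.8 CPM to 35.5, 29.9 and 34 CPM (adjusted p = 3.99e-06). In RKO (-0.12, adjusted p = 0.646) and DLD-1 (-0.13, adjusted p = 0.268) the gene was not called and the groups overlapped in RKO.

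DNAJB6 changed less. Its largest rise was in H-1299, from 231, 271 and 238 CPM to 471, 449.9 and 453 CPM, a log2 fold change of 0.89 ± 0.056 (edgeR adjusted p = 2.27e-08) between groups that did not overlap. The log2 fold changes were 0.62 ± 0.089 in H-929, 0.56 ± 0.054 in RPMI, 0.44 ± 0.076 in CAPAN-2, 0.42 ± 0.039 in H-23 and 0.16 ± 0.038 in PANC-1. Its rise in PANC-1 passed the test in the fit of that line (adjusted p = 0.00515) and not in the fit of all 48 libraries together (adjusted p = 0.0958). The values of -0.13 in RKO and -0.14 in DLD-1 did not pass it.

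DNAJB2 was higher in 5 lines, and its largest rise was in RPMI. There the DMSO libraries held 11.4, 10.9 and 12.1 CPM and the carfilzomib libraries 54.9, 61.3 and 56.2 CPM. All treated values were several times the highest DMSO value, a log2 fold change of 2.32 ± 0.079 (edgeR adjusted p = 3.39e-11). In H-1299 DNAJB2 went from 25.2, 24.8 and 28.2 CPM to 72.8, 74.6 and 72.6 CPM, and in H-929 from 20.2, 18.9 and 16.7 CPM to 39.2, 39.8 and 33.4 CPM. These groups did not overlap either, and the log2 fold changes were 1.49 ± 0.06 and 1.01 ± 0.13. CAPAN-2 followed with 0.89 ± 0.062 and H-23 with 0.24 ± 0.046. DNAJB2 was not called in DLD-1 (0.16, adjusted p = 0.0878), PANC-1 (0.081, adjusted p = 0.191) or RKO (-0.046, adjusted p = 0.86). No heat shock element of the searched form stood in the DNAJB2 window described above.

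DNAJB5 was called in 0 of the 8 lines in the main fits. Calls that it gained under other settings are given with the processing further on. Its largest log2 fold changes were 0.43 ± 0.15 in DLD-1 (edgeR adjusted p = 0.065) and -0.35 ± 0.17 in RKO (adjusted p = 0.239). In DLD-1 the libraries held 2.35, 2.18 and 2.195 CPM in DMSO and 3.13, 2.76 and 3.17 CPM after carfilzomib, so the groups did not overlap there. They did not overlap in H-1299 either, with 14.4, 14.8 and 13.9 CPM and then 12.2, 12.9 and 13.4 CPM (-0.17, adjusted p = 0.114). In H-929, where DNAJB1 rose most, DNAJB5 was at 8.41, 8.74 and 6.08 CPM and 6.23, 10.5 and 8.60 CPM with overlapping groups. Its counts ran from 20 to 971 per library, the lowest being in CAPAN-2, where the SE of 0.33 was the largest of its 8.

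Among the class A genes, DNAJA1 was higher in 4 lines and lower in both colon cancer lines. In H-929 it went from 149, 159.7 and 169.9 CPM in DMSO to 292, 279 and 267 CPM after carfilzomib, and in H-1299 from 288, 332 and 287 CPM to 500.4, 493 and 506 CPM. The groups stood apart in both lines, with log2 fold changes of 0.81 ± 0.077 (edgeR adjusted p = 9.88e-07) and 0.73 ± 0.054 (adjusted p = 1.09e-07). RPMI (0.47 ± 0.069) and CAPAN-2 (0.41 ± 0.062) were also called higher. RKO went from 292, 296 and 299.9 CPM to 179, 188 and 178 CPM, and DLD-1 from 128, 132 and 128 CPM to 105, 101 and 98.01 CPM. No treated library reached the lowest DMSO library, and DNAJA1 fell by 0.70 (adjusted p = 8.35e-07) and 0.35 (adjusted p = 3.73e-04) on the log2 scale. In the single-line fits the fall in RKO was the largest of the 8 genes, close to that of DNAJA2 in H-929 (-0.66 ± 0.11). Scaled over all 48 libraries the order was reversed, with 97.3 to 59.7 CPM per kb for DNAJA1 in RKO and 20.4 to 11.6 for DNAJA2 in H-929. DNAJA1 was not called in H-23 (0.078, adjusted p = 0.116) or PANC-1 (-0.035, adjusted p = 0.481).

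DNAJA2 went in both directions. It was higher in H-1299, from 156, 169.9 and 152 CPM to 232, 227 and 231 CPM (0.53 ± 0.047, edgeR adjusted p = 5.78e-07), and by less in CAPAN-2 (0.20 ± 0.064) and H-23 (0.18 ± 0.045). In H-929 it went from 91.9, 91.7 and 104 CPM to 71.03, 52.9 and 58.5 CPM, and every treated library was below every DMSO library. DNAJA2 fell there by 0.66 on the log2 scale (SE 0.11, adjusted p = 1.80e-04), in the line where DNAJB1 rose most. The falls in RKO (-0.21 ± 0.054, adjusted p = 0.0312) and DLD-1 (-0.14 ± 0.042, adjusted p = 0.0332) were small. The call in RKO was lost in 5 of the 6 fits that left out a library, and the call in DLD-1 in 4 of 6, and both were lost with library totals (adjusted p = 0.0686 and 0.111). The calls in H-23 and DLD-1 were lost in the fit of all 48 libraries (adjusted p = 0.110 and 0.142). RPMI, not called alone, was called lower in that fit (-0.16, adjusted p = 0.0416). The call in CAPAN-2 (adjusted p = 0.0142) was lost without its carfilzomib replicate 2 (adjusted p = 0.0689).

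DNAJA4 was called in CAPAN-2 alone among the 7 lines where it could be tested. There it went from 50.8, 48.03 and 48.4 CPM in DMSO to 78.2, 71.8 and 71.1 CPM after carfilzomib, with no overlap and a log2 fold change of 0.59 ± 0.06 (edgeR adjusted p = 1.23e-06). In RKO the levels were 27.4, 25.4 and 25.01 CPM and 24.1, 22.3 and 22.9 CPM (-0.17, adjusted p = 0.301), and in PANC-1 10.5, 11.2 and 10.1 CPM and 11.8, 11.97 and 11.04 CPM (0.13, adjusted p = 0.253). In the other lines DNAJA4 was near the floor, so a change could not be detected at this depth unless it was large. Its estimate in H-1299 was 1.06 ± 0.48 (adjusted p = 0.0721), and without DMSO replicate 2 it passed the test (1.59, adjusted p = 0.0153). It also passed in the fit of all 48 libraries (0.98, adjusted p = 0.0153).

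Averaged over the 8 lines in 1 fit of all 48 libraries, 5 of the 8 genes were called higher, where 19.8% of all genes were, and 0 were called lower (23.9% of all genes). The average log2 fold changes were 1.10 ± 0.027 for DNAJB1, 0.83 ± 0.033 for DNAJB4, 0.73 ± 0.028 for DNAJB2, 0.31 ± 0.023 for DNAJB6 and 0.14 ± 0.022 for DNAJA1 (SE). DNAJA2 (-0.051) had an adjusted p of 0.0795, DNAJA4 (0.22) of 0.106 and DNAJB5 (-0.0043) of 1.0 in edgeR. The error of this average comes from replicates of the same group and leaves out the spread over lines. With the 8 lines as units in limma, 0 of the 8 genes and 0.0% of all genes were called, and DNAJB4 (unadjusted p = 0.00785), DNAJB2 (0.0229) and DNAJB6 (0.0395) were the 3 with an unadjusted p under 0.05.

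The response differed between lines for 7 of the 8 genes in edgeR's test with 7 degrees of freedom, where 67.7% of all genes did so, and DNAJB5 was the exception (adjusted p = 0.183). Of the 28 pairs of lines, 27 differed in the response of DNAJB1, 25 for DNAJA1, 23 for DNAJB4, 21 for DNAJB2 and 20 each for DNAJA2 and DNAJB6. For DNAJA4 4 pairs differed and for DNAJB5 0, against 30% of pairs over all genes. In the order of DNAJB1 responses (H-929, RPMI, H-1299, CAPAN-2, PANC-1, H-23, DLD-1, RKO), every line differed from the next except DLD-1 from RKO (adjusted p = 0.496). For DNAJB4, the steps from H-1299 to H-929, from H-929 to CAPAN-2 and from CAPAN-2 to RPMI did not pass the test (adjusted p = 0.313, 0.290 and 0.0714), so these 4 lines were separated only over more than 1 step, as H-1299 from RPMI. For DNAJB6, H-1299 stood above H-929 in the same fit, while H-929, RPMI, CAPAN-2 and H-23 were not separated from their neighbours.

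The myeloma lines H-929 and RPMI were set against the 6 other lines in the same fit. DNAJB1 rose more in the myeloma lines by 3.47 ± 0.065 on the log2 scale (SE, edgeR adjusted p = 4.17e-37), DNAJB2 by 1.09 ± 0.068, DNAJB4 by 0.64 ± 0.08, DNAJA1 by 0.52 ± 0.05 and DNAJB6 by 0.21 ± 0.054. DNAJA2 was the reverse (-0.58 ± 0.057), and DNAJB5 and DNAJA4 were not called, so 6 of the 8 genes differed where 44.3% of all genes did. The difference of DNAJB6 was lost without replicate 1 (0.16, adjusted p = 0.0651). With lines as units in limma, DNAJB1 remained called (adjusted p = 0.0361) and the other 7 genes were not, where 4.94% of all genes were. H-1299, a lung cancer line, had a larger response of DNAJB6 than H-929 (by 0.36 ± 0.092, adjusted p = 9.90e-04) and RPMI (by 0.34 ± 0.088, adjusted p = 0.00175) and a larger response of DNAJB4 than RPMI (by 0.66 ± 0.12, adjusted p = 1.53e-05) in edgeR. The summed level of the 7 plasma cell markers went from between 6783 and 7382 CPM to between 3892 and 3979 CPM in H-929 and from between 1863 and 2123 to between 1031 and 1170 CPM in RPMI. In H-1299 the summed level of the 5 epithelial markers went from between 969.7 and 1065 to between 360.5 and 399.5 CPM, and the mesenchymal marker VIM from between 3387 and 3756 to between 2204 and 2286 CPM. The part of these changes in the results was not tested.

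The composition of the 8 transcripts shifted most toward DNAJB1 in H-929, RPMI and H-1299. As a share of the 8 genes' summed level per kb of exon union, DNAJB1 went from 12.6% ± 0.367 (SD, n = 3) to 71.7% ± 2.12 in H-929 and from 23.2% ± 0.360 to 61.97% ± 2.50 in RPMI. DNAJA1 went from 57.3% to 21.2% in H-929 and from 48.1% to 24.3% in RPMI, although its own level rose in both. After carfilzomib DNAJB1 led in both myeloma lines, where DNAJA1 had led in DMSO, and it came from behind DNAJA2 (18.6%) in H-929 and from the place next to DNAJA1 in RPMI. In H-1299 DNAJB1 went from 24.6% to 38.1%, by this length about level with DNAJA1 at 37.7%. With the longest transcript as the length DNAJB1 was above DNAJA1 there, as given below. In the other 5 lines the share of DNAJB1 after carfilzomib lay between 12.6% (H-23) and 28.3% (CAPAN-2), within 3 percentage points of its DMSO value. DNAJA1 stayed the leading gene in these lines by exon union, but not in CAPAN-2 and DLD-1 with the longest transcript. Other shares moved there too. In RKO DNAJA1 went from 54.8% ± 1.30 to 47.9% ± 0.681 and DNAJA2 from 17.98% ± 1.07 to 22.1% ± 0.240, and in PANC-1 DNAJA1 went from 60.9% ± 0.832 to 56.5% ± 1.10 (SD, n = 3), each without overlap between the groups.

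The summed level itself went from 109.7 ± 4.69 to 467 ± 9.74 CPM per kb in H-929, from 194 ± 10.8 to 506 ± 73.3 in RPMI and from 249.7 ± 14.8 to 502 ± 11.6 in H-1299 (SD, n = 3). It went from 133 ± 8.55 to 189 ± 8.33 in CAPAN-2, from 207 ± 6.22 to 219 ± 11.2 in H-23 and from 200.1 ± 4.84 to 209.5 ± 3.02 in PANC-1. In RKO it went down from 178 ± 4.25 to 125 ± 1.93 and in DLD-1 from 132 ± 3.41 to 109 ± 3.16. The sums of H-929, RPMI and H-1299, which ranged from 109.7 to 249.7 in DMSO, thus lay between 467 and 506 after carfilzomib. These shares depend on the gene length used. With the longest transcript in place of the exon union, DNAJB1 already passed DNAJA1 in DMSO in CAPAN-2 (30.1% against 28.5%) and DLD-1 (31.5% against 27.9%), and so did DNAJA2 in DLD-1 (29.4%). After carfilzomib DNAJB1 was above DNAJA1 by that length in H-1299, CAPAN-2 and DLD-1, and so was DNAJA2 in DLD-1. The longest transcripts of DNAJB1 and DNAJA1 have 2264 and 2381 bases. Their mean treated levels were 679 and 500 CPM in H-1299, 180 and 163 CPM in CAPAN-2 and 105 and 101 CPM in DLD-1.

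**Figure D4:**
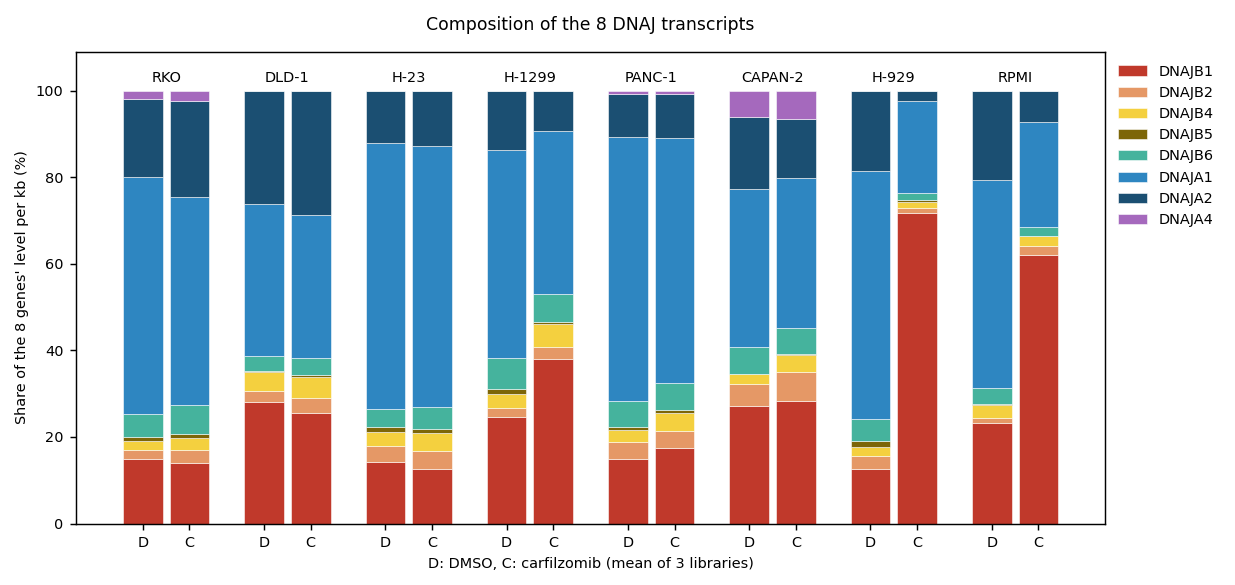
Share of each of the 8 genes in their summed level per kb of exon union (percent, mean of 3 libraries), with a DMSO bar (D) and a carfilzomib bar (C) for each line. The red DNAJB1 segment grows from 12.6% to 71.7% in H-929 and from 23.2% to 61.97% in RPMI, and changes by less than 3 percentage points in RKO, DLD-1, H-23, PANC-1 and CAPAN-2.

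The inducible HSP70 genes HSPA1A and HSPA1B, whose rows were summed because their transcripts are near-identical, gave a reference for each line. They were called higher in both lung cancer and both myeloma lines and in CAPAN-2, and were not called in PANC-1, RKO and DLD-1. In H-929 the sum went from 0.343, 0.863 and 0.342 CPM to 366, 468 and 425 CPM, and in H-23 from 6.33, 6.66 and 5.73 CPM to 14.6, 25.2 and 40.4 CPM. Over the 8 lines, Pearson's r with the log2 fold change of this sum was 0.949 for DNAJB1 (Spearman's rho 0.976), 0.889 for DNAJA1, 0.840 for DNAJB4, 0.830 for DNAJB6 and 0.824 for DNAJB2. With both myeloma lines, the most distant points, set aside, r was 0.904, 0.914, 0.906, 0.963 and 0.961 in the same order. For DNAJA2 r was -0.23 over 8 lines and 0.933 without those lines, so its value over all lines rests on those 2. DNAJB5 had an r of 0.147. These are descriptions over 8 points that share libraries and depth within each line.

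Single lines departed from that order. In PANC-1 the HSPA1A and HSPA1B sum was at 13.03, 3.39 and 5.26 CPM in DMSO and 7.57, 6.73 and 5.27 CPM after carfilzomib (-0.14, edgeR adjusted p = 0.788). DNAJB1, DNAJB4 and DNAJB6 rose there, and so did HSPA6 (log2 fold change 2.50). PANC-1 thus departed from the sum and not from every inducible HSP70 gene. A rise of HSPA6 did not set PANC-1 apart, since HSPA6 passed the test as higher in 7 of 7 lines, RKO not being tested. In DLD-1 it rose by 2.18, although the sum was not called there and 0 of the 8 DNAJ genes were called higher. In H-23 DNAJB1 did not pass the test while the sum rose by 2.13 ± 0.25. DNAJB2 rose more in RPMI than in H-929 (difference of H-929 minus RPMI -1.38 ± 0.12, edgeR adjusted p = 4.39e-13), while the log2 fold change of the HSP70 sum was 9.60 in H-929 and 7.75 in RPMI, a difference that did not pass the test in the fit of all 48 libraries (1.79 ± 1.09, adjusted p = 0.200).

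**Figure D5:**
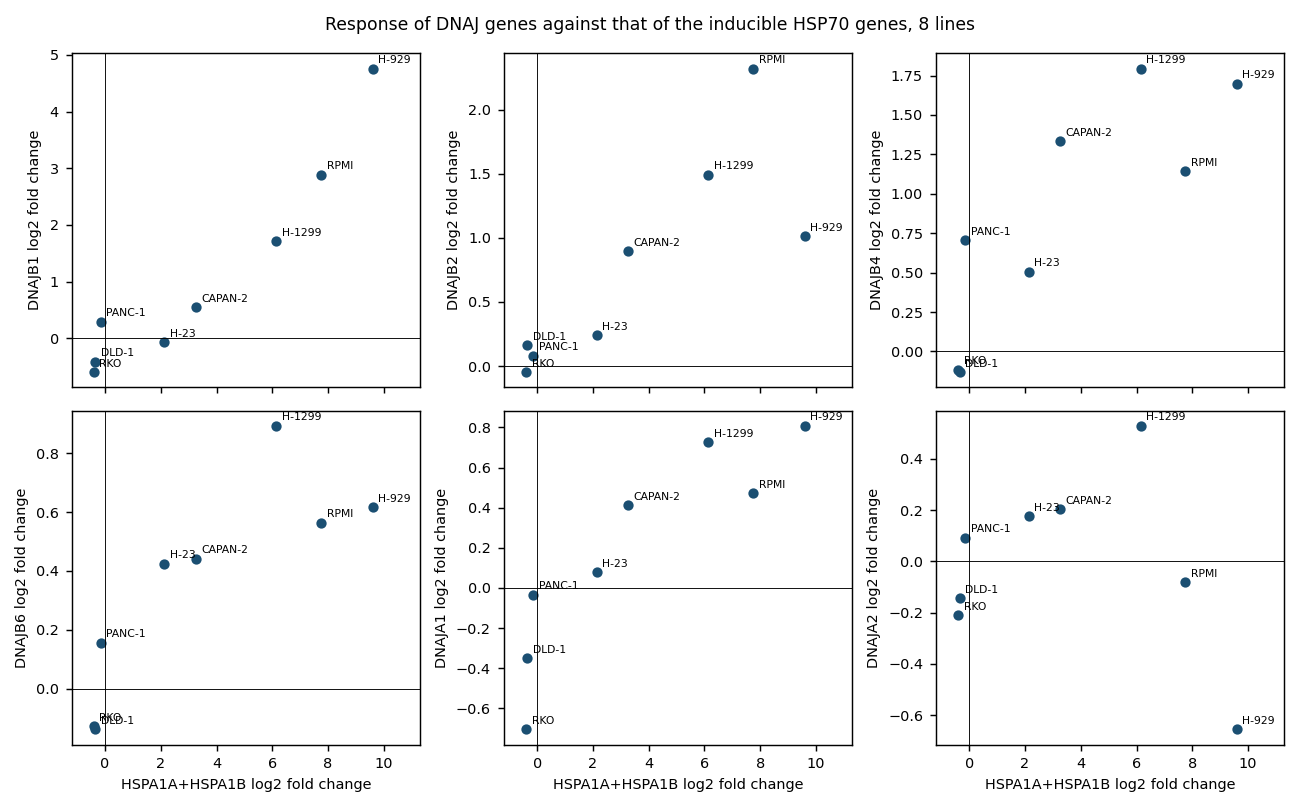
Log2 fold change of 6 DNAJ genes (vertical axes, each with its own range) against that of the summed HSPA1A and HSPA1B rows (horizontal axis), with a point for each of the 8 lines. DNAJB1 and DNAJA1 climb with the HSP70 genes (r = 0.949 and 0.889), and DNAJA2 drops out of line in RPMI and H-929.

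The partners of the same chaperone cycle were described from lists chosen beside the 8 genes. All 4 tested entries of the cytosolic HSP70 list were higher on average over lines, where 19.8% of all genes were (median log2 fold change 2.23, against 0.016 for all genes). HSPA6, a strictly inducible HSP70, had the highest average there, 4.60 ± 0.48 (SE, edgeR adjusted p = 2.33e-11), and HSPA8, the constitutive HSC70, the lowest, 0.22 ± 0.029 (adjusted p = 5.70e-09). HSPA8 ran from -1.30 in RKO to 1.56 in H-1299, and RKO and DLD-1 (-0.55), where DNAJA1 fell, had its lowest values. Its value in PANC-1 was -0.39, and DNAJA1 was not called there. Of 10 nucleotide exchange factors, which release ADP and the client from HSP70, 5 were higher and 2 lower on average (median 0.085), where 19.8% and 23.9% of all genes were. BAG3, which couples HSP70 to selective autophagy, was highest among them with an average of 1.28 ± 0.032 and was called higher in the same number of lines as DNAJB4, 6 of 8. BAG5 was lowest with -0.14 ± 0.020.

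Of 9 partner co-chaperones and links to HSP90, 6 were higher and 1 lower on average (median 0.28), against the same shares of all genes. HSP90AA1, the inducible cytosolic HSP90, averaged 0.67 ± 0.030 with its highest value in RPMI (2.66), and STUB1, a ubiquitin ligase that binds HSP70, averaged -0.26 ± 0.034. Of 7 tested DNAJA and DNAJB genes outside the 8, 2 were higher and 1 lower (median 0.12), where 19.8% and 23.9% of all genes were. DNAJB9, a co-chaperone of the endoplasmic reticulum, averaged 0.36 ± 0.031 and ran from -0.61 in H-929 to 1.56 in H-1299, while DNAJB12 averaged -0.13 ± 0.025.

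Of 30 tested DNAJC genes, a class that shares little beyond the J domain, 7 were higher and 9 lower on average, with a median of -0.0074. These counts lie near the shares over all genes, 19.8% higher and 23.9% lower. DNAJC2, a ribosome-associated member, averaged 0.55 ± 0.022. In H-929, 4 DNAJC genes were called higher and 15 lower of 28 tested (26.1% and 26.6% of all genes). The 8 cytosolic DNAJ genes themselves had 5 higher, 0 lower and a median of 0.27. Among heat shock factors and their regulator HSBP1, 2 of 3 tested were higher and 1 lower (19.8% and 23.9% of all genes), with HSF2 at 0.30 ± 0.035 and HSBP1 at -0.11 ± 0.028. HSF1 itself was not tested, and its row shares an identifier with another row. The same sharing holds for a few other list genes, and no value of any of them is given here.

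Among 10956 genes compared over the 8 lines, the response most like that of DNAJB1 was that of KLF5 (r = 0.990), a transcription factor gene, followed by TRMT1 (0.988) and the small RNA SCARNA7 (0.976). For DNAJB2 the leading genes were CRYZL1 (0.997), CDKAL1 (0.996) and TMEM79 (0.986), and for DNAJB4 they were COP1 (0.984), PARG (0.977) and BRF2 (0.973). BRF2 (0.980) and COP1 (0.972) were also among the leading 3 for DNAJA1, with VTI1A (0.979). DNAJB6 was closest to C1orf52 (0.985), CREBRF (0.981) and SMG1 (0.980), and DNAJA2 to DBT (0.991), YWHAG (0.988) and PIK3CA (0.985). DNAJB5, called in no line, was closest to RAB5IF (0.885), ENO2 (0.855) and CCNQ (0.854). DNAJA4 was not tested in every line and was left out. With 8 points and so many genes, high values of r are common, and they say nothing about shared control.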

How the data were processed

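The values are the authors' raw counts of reads, 1 row for each of 33892 gene entries and 1 column for each of 48 libraries, used as deposited. Per the labels' protocols, libraries were made from total RNA with a stranded kit. Per the submitters' processing notes, bcl2fastq 2.19, FastQC, Trimmomatic, HISAT2 and DESeq2 were used with build hg38. The counting program, the annotation and the use of strand are not given in the sources used here.

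The 6 libraries of a line were fitted together in edgeR 4.0.16 (R 4.3.3; quasi-likelihood F test) after TMM scaling and filterByExpr, with Benjamini-Hochberg adjustment over all genes and calls at 0.05. The 8 rows of HSPA1A and HSPA1B were summed first. A fit of all 48 libraries with 16 groups and a trended dispersion gave averages, tests between lines and the 28 line pairs; its scaling differs from that of single lines, so a difference in that fit need not equal the difference of single-line values. Gene lengths and coordinates came from GENCODE release 29 (87.6% of rows matched by identifier), promoter windows from RefSeq. The steps were tested on simulated data.

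The members and the lists were chosen with earlier results of these data known. Named genes are the 8 members, the HSPA1A and HSPA1B sum, the called gene with the highest and the lowest average in each list, and the 3 genes with the highest r for each member. The gene with the lowest average in the DNAJC list is not reported here. Alternatives were DESeq2 size factors, a Wald test in DESeq2 1.42.0, library totals, a minimum mean of 50 counts or none, rows summed by identifier, 1 fit of all libraries, a replicate block, lines as units in limma 3.58.1, and leaving out each line, replicate number or library in turn. Samples were not treated as paired in the main fits. The correlation of same-numbered libraries was weak, between -0.096 and 0.139, and in 0 lines did every pair exceed 0.1. These values cannot exclude pairing in single lines, as given for PANC-1 and RKO below.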

Additional observations from a re-analysis of the deposited data

Results flagged for a closer look

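The response to carfilzomib differed between the 8 lines for 7 of the 8 genes, by a test of the difference itself in edgeR over all 48 libraries. The F statistic was 496 for DNAJB1 (adjusted p = 4.09e-35), 101 for DNAJB2 (adjusted p = 9.30e-23), 62.3 for DNAJA1 (adjusted p = 3.89e-19) and 60.4 for DNAJB4 (adjusted p = 6.82e-19). It was 28.8 for DNAJA2 (adjusted p = 1.60e-13), 27.5 for DNAJB6 (adjusted p = 3.53e-13) and 2.90 for DNAJA4 (adjusted p = 0.0223). Of all genes tested, 67.7% differed between lines. DNAJB1 and DNAJA1 were called in opposite directions in different lines, as was DNAJA2, while DNAJB2, DNAJB4 and DNAJB6 were called in the higher direction only, and DNAJA4 was called in CAPAN-2 alone.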

How the results depend on the processing

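The 30 higher and 7 lower calls in single lines ranged from 29 to 31 and from 6 to 8 over the fits that left out a library. Leaving out a replicate number gave 5 to 6 genes called on average, 6 to 7 that differed between lines, 5 to 6 for myeloma against the other lines, and 8 for DMSO levels. With lines as units, the genes called were 0 on average and 1 for myeloma. Library totals moved the share of higher calls over all genes from 40.6% to 60.8% in RKO, from 47.5% to 60.3% in DLD-1 and from 48.9% to 38.9% in H-1299, where the median of all genes shifted by -0.11. Under library totals DNAJA2 lost its calls in RKO (-0.17) and DLD-1 (-0.10), and DNAJB2 (0.20) and DNAJB5 (0.47) in DLD-1 and DNAJB5 in H-1299 (-0.28) gained one. DNAJB5 in DLD-1 was also called higher at a mean of at least 50 counts (0.43, edgeR adjusted p = 0.0499). The replicate block ended the call of DNAJA2 in DLD-1 (-0.14, adjusted p = 0.0738) and changed no other call of a gene in a line. In PANC-1 all 6 libraries correlated best with their own number, and in RKO 5 of 6 did. In 1 fit of all libraries DNAJA2 lost its calls in DLD-1 and H-23, and DNAJB6 in PANC-1. In the same fit DNAJA2 gained a lower call in RPMI (-0.16, edgeR adjusted p = 0.0416) and DNAJA4 a higher call in H-1299 (0.98, adjusted p = 0.0153).

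Signs changed in values that had not been called. DNAJB2 in RKO became 0.048 and 0.024 without DMSO replicate 3 and without carfilzomib replicate 2. DNAJB5 in PANC-1 became 0.0081, in H-929 -0.034 and -0.090 (range -0.090 to 0.28), and in RPMI -0.23 (range -0.23 to 0.32) without single libraries, and -0.038 in H-929 in 1 fit of all libraries. DNAJA4 in RPMI became -0.057 (range -0.057 to 0.57). The average of DNAJB5 became 0.014 with DESeq2 size factors, 0.031 with library totals, 0.019 at a mean of at least 50 counts, and -0.12 to 0.088 without a replicate number (0.0012 without number 2). Without RKO, H-23, H-1299 or PANC-1 it was 0.045, 0.013, 0.028 and 0.0074. The average of DNAJA2 became 0.054 without H-929 (adjusted p = 0.0285), so its sign rests on that line. It was called lower without H-1299 (-0.12), CAPAN-2 (-0.091), H-23 (-0.080) or PANC-1 (-0.070), without replicate 1 (-0.065) and with no filter on low counts (-0.064). The average of DNAJA4 was called higher without DLD-1 (0.30), H-929 (0.27) or replicate 2 (0.36). In the myeloma comparison DNAJB5 became -0.18 without replicate 3 (range -0.18 to 0.16 without a replicate number), and -0.041, -0.0073 and -0.033 without RKO, H-1299 or RPMI. DNAJA4 there became 0.062 without replicate 2 (range -0.66 to 0.062 without a replicate number) and 0.027 without H-929. The causes were not tested. Depth limits DNAJA4 most, with as few as 3 counts in a library.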

Other observations

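Responses of the 8 genes to carfilzomib were also compared with each other over the lines, as a description with no test. Over 8 lines, r was 0.966 for DNAJA1 and DNAJB4, 0.938 for DNAJA1 and DNAJB6, and 0.931 for DNAJB4 and DNAJB6, and 0.950, 0.855 and 0.793 over the 6 lines without DLD-1 and RKO. DNAJB1 was less like them (0.814 with DNAJA1, 0.770 with DNAJB4 and 0.683 with DNAJB6), and over the 6 lines without H-929 and RPMI these values were 0.926, 0.958 and 0.920. DNAJB5, the relative of DNAJB1 and DNAJB4 in sequence, had r between -0.21 and 0.22 with the other genes measured in 8 lines. Over the 7 lines where DNAJA4 was tested, which leave out H-929, its r was 0.961 with DNAJB6, 0.941 with DNAJB4, 0.914 with DNAJA2 and 0.897 with DNAJA1.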
